A study of Equus caballus with 25 samples.

Results

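The mucin genes MUC5AC, MUC1 and MUC4 and the mucin glycosylation enzymes GALNT10 and CHST4 were followed in cells recovered by bronchoalveolar lavage from 25 horses. These 5 genes were 5 of the 7238 equine transcripts on a custom 1-colour array aimed at immune and mucosal genes. MUC5AC and CHST4 were located by their Ensembl transcript identifiers, and MUC1, MUC4 and GALNT10 by the identifiers that the study's supplementary gene lists pair with these symbols. Each gene had 1 probe, printed as 2 spots.

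The horses formed 3 diagnostic groups. Control held 7 clinically healthy standardbred horses. IAD, inflammatory airway disease or mild to moderate equine asthma, held 10 horses, and RAO, recurrent airway obstruction or severe equine asthma, held 8. The affected horses were clinical cases, each horse gave 1 sample, and both sexes were present in every group. The lavage reached both main bronchi, and RNA came from the pelleted cells. Mucus hypersecretion was among the signs used to place horses in IAD and RAO, and the IAD horses were chosen for neutrophilic inflammation of the airways. The IAD and RAO groups were mostly saddle horses and the RAO horses were older than the others, so diagnosis cannot be told apart from breed, nor RAO from age. The 25 arrays lay on 4 slides, and every slide held all 3 groups.

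Mucins are large glycoproteins whose protein core is covered with sugar chains attached to serine and threonine. MUC5AC is a secreted, gel-forming mucin, made in the airway mainly by goblet cells of the surface epithelium, and it gives mucus its structure. MUC1 and MUC4 stay anchored in the membrane of epithelial cells, where their long outer parts line the surface beneath the mucus. GALNT10 belongs to the enzymes that attach the sugar N-acetylgalactosamine to a mucin core, and CHST4 adds sulfate to N-acetylglucosamine in the sugar chains.

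The probes are shown because all values rest on them. Each is the 60-base sequence given in the scanner files, and capitals mark the longest run that it shares, on either strand, with the probe of any other transcript on the array.
MUC5AC (ENSECAT00000019246): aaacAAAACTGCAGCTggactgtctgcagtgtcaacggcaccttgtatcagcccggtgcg
MUC1 (ENSECAT00000006823): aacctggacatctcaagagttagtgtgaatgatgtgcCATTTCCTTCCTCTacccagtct
MUC4 (ENSECAT00000008458): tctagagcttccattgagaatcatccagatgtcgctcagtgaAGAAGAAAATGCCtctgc
GALNT10 (ENSECAT00000007410): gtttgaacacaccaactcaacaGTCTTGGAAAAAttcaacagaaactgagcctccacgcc
CHST4 (ENSECAT00000006503): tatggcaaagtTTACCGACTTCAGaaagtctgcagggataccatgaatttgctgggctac
These runs were 12 bases for MUC5AC and GALNT10, 13 for MUC4 and CHST4, and 14 for MUC1. Between any 2 of the 5 members the longest common run was 5 to 8 bases. G and C made up 55% of the MUC5AC probe and 45% of each of the others, and the median over all probes was 45%. The files place no probe on a chromosome. In the RefSeq annotation of assembly TB-T2T, MUC5AC lies next to MUC5B, another gel-forming mucin gene, and MUC4 lies next to MUC20.

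Values below are log2 intensities after cyclic loess normalization across the 25 arrays, with the spots of a probe averaged. Levels of different probes cannot be set against each other on an array, so each gene is compared only with itself between horses. Lavage samples hold several cell types, and fewer cells of a type and less RNA per cell cannot be told apart. Of 6 tested transcripts of macrophage genes 3 were well above background on all 25 arrays, CD68 and MARCO among them, and of 10 epithelial ones 6 were, such as EPCAM and KRT18. The share of probes well above background ran from 54.8% to 88.8% of the 7238. RAO 1 stood apart from the other RAO arrays, with a median correlation of 0.85 with them over the tested transcripts against 0.91 or more for every other RAO array. It also had the lowest value of its group for all 5 members. IAD 5 was likewise the lowest of its group for all 5, and IAD 3 had the lowest median correlation in IAD, 0.88.

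**Figure D1:**
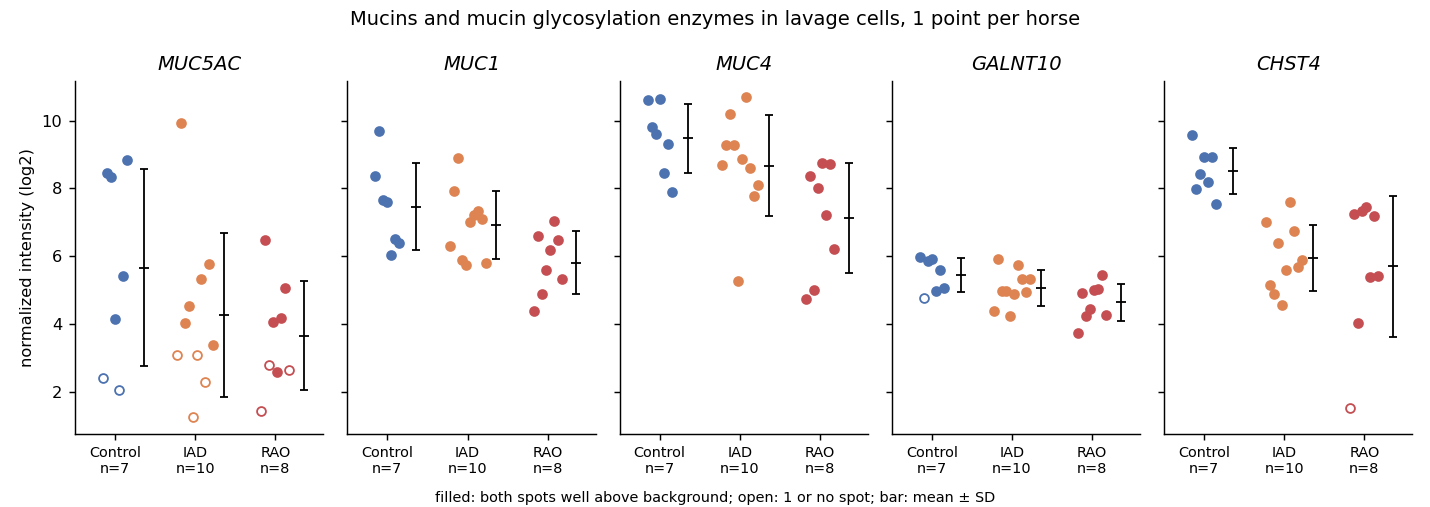
Log2 normalized intensity of the 5 members, 1 point per horse, in Control (n = 7), IAD (n = 10) and RAO (n = 8), with the mean ± SD beside each group; open points had 1 spot or no spot well above background. MUC5AC spans 2.06 to 8.84 within Control alone, while every CHST4 value of RAO lies below every Control value.

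The secreted mucin MUC5AC was the most variable member. In Control, Control 5 gave 2.06, Control 1 gave 2.42, Control 4 gave 4.15 and Control 6 gave 5.43, while Control 3, Control 2 and Control 7 gave 8.32, 8.44 and 8.84. The value of Control 5 was not above background, and the highest healthy horse exceeded it at least 87.1-fold, counted from the lowest signal above background on that array. IAD ranged from 1.25 in IAD 5 to 9.92 in IAD 2 (at least 177-fold by the same rule), with a median of 3.72. RAO ranged from 1.45 in RAO 1 to 6.48 in RAO 2 (at least 14.8-fold), with a median of 3.44. The groups overlapped over most of their range. No RAO horse reached the level of the 3 highest Control horses, and only IAD 2 did so among the IAD horses.

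Both MUC5AC spots were well above background on 16 of the 25 arrays, 1 spot on 2 arrays and neither on 7. The arrays with no signal above background were 2 of Control, 2 of IAD and 3 of RAO, and their values carry only an upper bound. The gene passed the filter on low intensities, which asked for a log2 value of at least 4.5 on 7 arrays or more, with 10 arrays (4 Control, 4 IAD and 2 RAO). Its SD within groups was 2.35 against a median of 0.56 over the tested transcripts, the sixth largest SD of all and above 99.9% of them. The 2 spots of an array differed by a median of 0.21 over the 25 arrays, with the largest difference, 1.57, in IAD 5, and by a median of 0.15 on the 16 arrays where both were above background.

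The mean absolute deviation of MUC5AC from its group median was 2.43 in Control, 1.65 in IAD and 1.29 in RAO. The spread in RAO minus that in Control was -1.14 (two-sided exact permutation test over horses, p = 0.0662, adjusted p = 0.199 over 3 tests). The deviations were taken from the medians of the observed groups before horses were regrouped, so the p-values for spread are approximate. Without Control 6 this difference was -1.54 (permutation adjusted p = 0.022). Control 6 was itself the Control median and had a deviation of 0. Leaving it out raises the mean deviation of Control by construction, so nothing is drawn from that value. IAD against Control differed by -0.77 (permutation p = 0.351, adjusted p = 0.53), and without IAD 2 by -1.31 (adjusted p = 0.097). RAO minus IAD was -0.37 (permutation p = 0.691). With all horses none of the differences in spread passed an adjusted p of 0.1 after cyclic loess. That of RAO from Control passed under quantile normalization (-1.39, permutation adjusted p = 0.0834) and under normexp background correction (-0.78, permutation adjusted p = 0.0322).

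The membrane mucins MUC1 and MUC4 were well above background on all 25 arrays. MUC1 ran from 6.05 to 9.69 in Control with a median of 7.59, from 5.74 to 8.89 in IAD with a median of 7.05, and from 4.38 to 7.04 in RAO with a median of 5.89. All 8 RAO horses lay below the Control median, although the ranges overlapped. MUC4 ran from 7.91 to 10.6 in Control with a median of 9.59, from 5.29 to 10.7 in IAD with a median of 8.77, and from 4.74 to 8.76 in RAO with a median of 7.60. The highest RAO value of MUC4 exceeded only the 2 lowest Control values, of Control 7 and Control 5.

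Of the enzymes, GALNT10 had the smallest range. Its values were 4.76 to 5.98 in Control (median 5.60), 4.24 to 5.93 in IAD (median 4.98) and 3.74 to 5.44 in RAO (median 4.68), close to the 4.5 used as the limit of detection, and its SD within groups of 0.53 was below the median of all tested transcripts. CHST4 separated Control from most of the affected horses. It lay between 7.55 and 9.56 in Control (median 8.42), between 4.56 and 7.60 in IAD (median 5.79) and between 1.53 and 7.44 in RAO (median 6.31). No RAO horse overlapped with Control, and in IAD only IAD 7, at 7.60, passed the lowest Control horse. RAO 1, the lowest, was the only array on which CHST4 was not above background.

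All 5 members had lower means in RAO than in Control, and the 2 membrane mucins and both enzymes passed the test. CHST4 differed by -2.81 on the log2 scale, a 7.01-fold difference of means (8.51 ± 0.68 in Control, n = 7, and 5.70 ± 2.09 in RAO, n = 8, SD; SE 0.75, adjusted p = 0.0171 by limma). MUC4 was 5.08-fold lower (9.47 ± 1.02 against 7.13 ± 1.63; SE 0.65, adjusted p = 0.0187). MUC1 was 3.14-fold lower (7.46 ± 1.29 against 5.81 ± 0.92; SE 0.52, adjusted p = 0.031), and GALNT10 was 1.76-fold lower (5.45 ± 0.51 against 4.64 ± 0.55; SE 0.27, adjusted p = 0.0374). The mean of MUC5AC was 4.02-fold lower (5.67 ± 2.91 against 3.66 ± 1.61), but the spread between horses was too large for it to pass (log2 difference -2.01, 95% interval -4.28 to 0.26, adjusted p = 0.175). With values below background raised to the lowest signal above it on their array, a setting chosen after the data were seen, the log2 difference was -1.94 for MUC5AC (limma adjusted p = 0.135) and -2.68 for CHST4 (adjusted p = 0.0128).

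Thus 4 of 5 members were called lower in RAO, at an adjusted p below 0.1 and a fold of at least 1.5. Over the 4930 tested transcripts 16.7% were called lower by the same rule, and 1.26% had all RAO values below all Control values, as CHST4 did. Among the 1684 tested transcripts that have a symbol here, 44.1% were called lower, because the symbols come from the study's own lists of changed transcripts. The list for severe asthma holds all 5 members, so that their count in this comparison is not independent evidence of its direction. The median difference of the members was -2.01 against -0.01 over all tested transcripts. Without Control 5, MUC5AC was called as well (log2 difference -2.61, limma adjusted p = 0.0726, against 0.0726 to 0.313 when each horse was left out in turn), and with the scan day as a block its adjusted p was 0.0898. The difference of GALNT10 was lost under normexp background correction, at -0.20 with an adjusted p of 0.146.

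In IAD only CHST4 differed from Control. It was 5.88-fold lower (5.95 ± 0.98 in IAD, n = 10, against 8.51 ± 0.68 in Control; SE 0.40, limma adjusted p = 0.00849), and all 10 IAD horses were below the Control median. The other 4 members also had lower means in IAD, but none passed. MUC5AC differed by -1.40 (95% interval -3.81 to 1.02, adjusted p = 0.485), MUC4 by -0.80 (-2.04 to 0.43, adjusted p = 0.426), MUC1 by -0.54 (-1.61 to 0.52, adjusted p = 0.541) and GALNT10 by -0.38 (-0.92 to 0.16, adjusted p = 0.387). The count of 1 of 5 stands beside 6.53% of all tested transcripts called lower in IAD and 18.1% of those with a symbol. CHST4 is on the study's list for mild to moderate asthma too. With the percentage of epithelial cells counted in each horse's lavage as a covariate, the difference of CHST4 was -2.71 but its adjusted p was 0.182. In that limma fit 0 of the 4930 transcripts were called, against 610 at an unadjusted p below 0.05.

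Between RAO and IAD none of the 5 members was called by limma, beside 0.791% of all tested transcripts called lower and 1.44% called higher. At an unadjusted p below 0.05 there were 2, MUC1 and MUC4, and the exact rank sum test called none. MUC4 was 2.91-fold lower in RAO (log2 difference -1.54, 95% interval -2.95 to -0.13, adjusted p = 0.207) and MUC1 was 2.16-fold lower (-1.11, -2.01 to -0.21, adjusted p = 0.17). All 8 RAO horses lay below the IAD median for each of these membrane mucins. Without IAD 5 the difference of MUC4 was -1.92 and passed (limma adjusted p = 0.0863), and with array weights MUC1 passed at -0.90 (adjusted p = 0.0872). CHST4 differed by -0.25 (-1.68 to 1.17) and MUC5AC by -0.61 (-2.51 to 1.29), with 4 of the 8 RAO horses below the IAD median for either gene. Both of these differences turned their sign when 1 horse was left out, CHST4 to 0.34 without RAO 1 and MUC5AC to 0.02 without IAD 2.

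**Figure D2:**
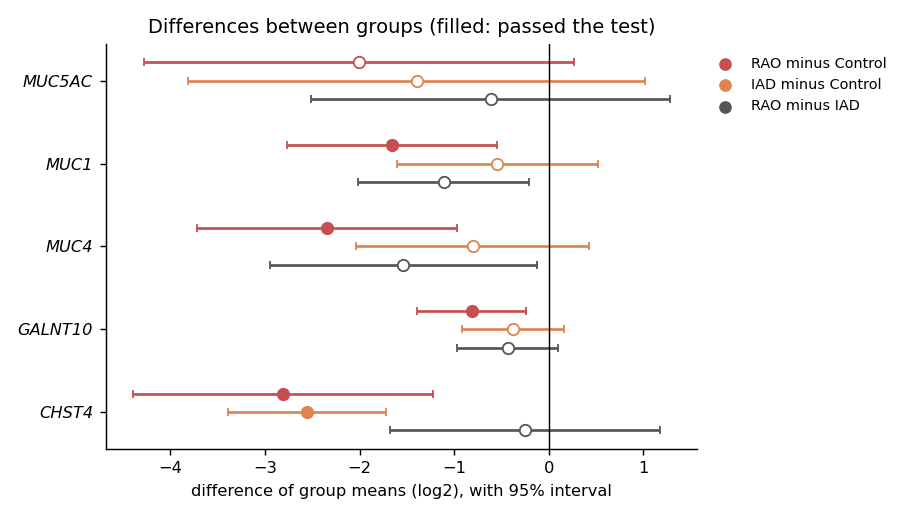
Difference of group means on the log2 scale for each member in the 3 comparisons, with 95% intervals from limma; filled points passed an adjusted p of 0.1 and a fold of 1.5. In RAO minus Control 4 of 5 points are filled, in IAD minus Control only CHST4 at -2.56, and in RAO minus IAD none.

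The slides bear on these differences, since each slide held few horses of a group. Within each of the 4 slides RAO was below Control for these genes, with log2 differences from -5.47 to -1.35 for MUC4, from -4.65 to -0.37 for MUC1 and from -1.63 to -0.59 for GALNT10. The lowest of these values came in each case from the slide whose only RAO horse was RAO 1. On that slide CHST4 was not above background in RAO 1 and has only a bound, and on the other 3 slides its differences lay between -2.29 and -2.06. For MUC5AC 1 slide had all its Control and RAO horses above background, with a difference of -1.64. On the other slides, where some values were not above background, the differences of RAO from Control ran from -6.19 to 0.05. Those of IAD from Control for MUC5AC ran from -4.68 to 1.07 over the 4 slides. IAD was below Control on every slide for CHST4, with differences from -3.09 to -1.39. On the slide with 5 IAD horses and Control 7 alone, IAD was higher than Control for MUC1 (0.88), MUC4 (1.16) and GALNT10 (0.22). With the slide as a block the log2 differences of RAO from Control were -3.12 for CHST4, -2.48 for MUC4, -1.57 for MUC1, -0.91 for GALNT10 and -2.15 for MUC5AC (limma adjusted p = 0.122 for the last), and the same 4 members were called. Without RAO 1 the same 4 were called, with differences of -2.21 for CHST4, -2.0 for MUC4, -1.45 for MUC1 and -0.69 for GALNT10.

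Secreted and membrane mucins were then compared within each horse, as the log2 intensity of MUC5AC minus that of MUC1 or MUC4. Only the change of this difference between groups has a meaning, as it compares 2 fold changes. MUC5AC minus MUC4 was -3.81 ± 3.37 in Control, -4.40 ± 2.18 in IAD and -3.47 ± 1.31 in RAO (SD). MUC5AC minus MUC1 was -1.80 ± 2.88, -2.65 ± 2.16 and -2.15 ± 1.10. None of the 6 comparisons passed (two-sided exact permutation tests over horses, adjusted p = 0.8 in each), with shifts from -0.85 to 0.93. RAO against Control gave 0.34 for MUC4 (p = 0.8) and -0.35 for MUC1 (permutation p = 0.754), and the sign of either turned when single Control horses were left out. A different response of the secreted and the membrane mucins was thus not detectable in these horses.

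**Figure D3:**
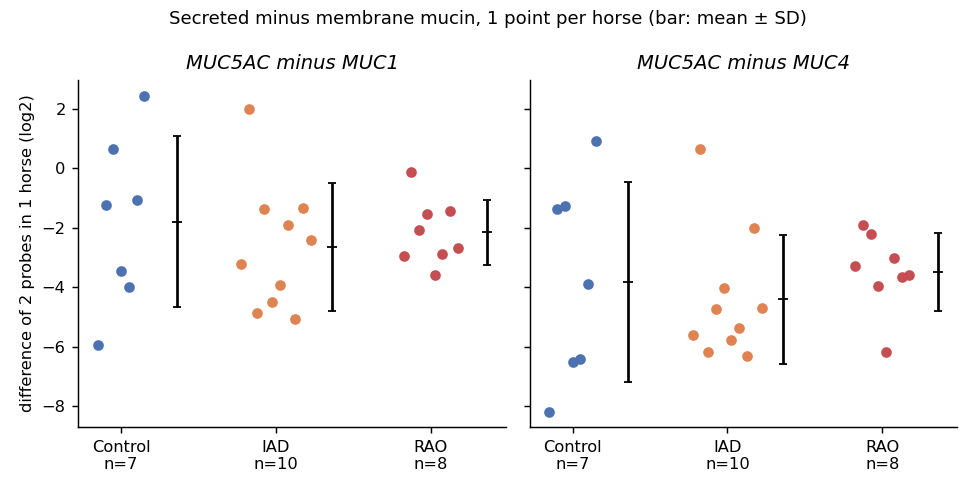
Log2 intensity of MUC5AC minus that of MUC1 (left) and of MUC4 (right) in each horse, with the mean ± SD of each group. The groups overlap in both panels, and Control spreads from -8.18 to 0.94 for MUC5AC minus MUC4. The lowest of these values is that of Control 1, where MUC5AC was not above background, so it is only an upper bound.

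Across horses MUC4 was correlated with MUC1 and with both enzymes. Over 25 horses the highest Pearson correlation among the 10 pairs was between MUC4 and GALNT10 (Pearson r = 0.79, Spearman rho = 0.66, permutation adjusted p = 0.0001 and 0.0018). With group means subtracted, r was 0.71, and it was 0.65, 0.61 and 0.86 within Control, IAD and RAO. MUC1 and MUC4 gave r = 0.76 and rho = 0.74 (permutation adjusted p = 0.0001 and 0.0006), and 0.66, 0.60 and 0.80 within the groups. MUC4 and CHST4 gave r = 0.75 and rho = 0.63 (permutation adjusted p = 0.000167 and 0.003), and 0.78, 0.49 and 0.94 within the groups. Without the 2 horses farthest from the median of the first gene of the pair, these 3 correlations were 0.70, 0.79 and 0.59. MUC1 gave r = 0.60 with GALNT10 (rho = 0.62, permutation adjusted p = 0.0029 and 0.003), and 0.44 with group means subtracted. With CHST4 it gave r = 0.46 (rho = 0.39, permutation adjusted p = 0.0298 and 0.071), 0.28 with group means subtracted, and -0.17 within IAD.

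MUC5AC gave r = 0.50 with MUC1 (rho = 0.48, permutation adjusted p = 0.0195 and 0.0291), 0.45 with GALNT10 (rho = 0.39, 0.0298 and 0.071), 0.40 with MUC4 (rho = 0.34, 0.052 and 0.104) and 0.29 with CHST4 (rho = 0.28, 0.153 and 0.173). These values changed from group to group. In RAO the 4 correlations lay between 0.68 and 0.75, whereas in Control they were 0.25, -0.33, -0.31 and -0.66. Control 7 had the highest MUC5AC and the lowest CHST4 and MUC4 of its group, and Control 1 had the second lowest MUC5AC and the highest CHST4. Whether these correlations differ between the groups was not tested. The values left for MUC5AC without Control 7 and IAD 2 were 0.55, 0.40, 0.48 and 0.43.

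Markers of other cell types moved with the groups. All 10 tested transcripts of 8 ciliated cell genes (such as FOXJ1, RSPH4A, SPAG6 and TEKT1) were called lower in RAO and 9 in IAD, with median differences of -2.51 and -1.84. The mean log2 level over these markers was 9.43 to 11.2 in Control, 6.50 to 10.7 in IAD and 4.54 to 9.80 in RAO. Of 10 transcripts of 9 epithelial genes (such as EPCAM, CDH1 and CLDN7), 10 were called lower in RAO and 6 in IAD, and their mean level was 8.20 to 10.2, 6.71 to 9.37 and 4.72 to 8.49. Of 8 transcripts of 7 neutrophil genes (such as TREM1 and CSF3R), 7 were called higher in RAO and 0 in IAD by limma, where 2 had an unadjusted p below 0.05, and their mean level was 7.53 to 11.05, 8.81 to 14.0 and 8.35 to 13.6. These markers have symbols only because the study called them changed in these horses. In RAO 44.1% of the tested transcripts with a symbol were called lower and 42.2% higher, against 16.7% and 16% of all tested. In IAD these shares were 18.1% and 7.07%, against 6.53% and 3.25%.

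The members were set against the marker groups in relations chosen after the data were seen. CHST4, MUC4, MUC1 and GALNT10 are each given with 1 marker group, but other groups gave high values too. CHST4 gave r = 0.88 with the epithelial markers. MUC4 gave 0.74 with the ciliated markers and 0.865 with the secretory markers CXCL17 and SPDEF. For MUC1 these 2 values were 0.415 and 0.76, and for GALNT10 0.66 and 0.75. Whether r differs between marker groups was not tested. CHST4 followed the ciliated cell markers over the 25 horses (r = 0.95, rho = 0.96, permutation adjusted p = 3.75e-05 and 5e-05 over 15 relations), and did so inside each group, with r = 0.92 in Control, 0.80 in IAD and 0.98 in RAO, and with r = 0.91 without RAO 1 and RAO 3. MUC4 followed the epithelial markers (r = 0.91, rho = 0.84, with the same adjusted p values, 0.93, 0.80 and 0.97 within the groups, and 0.85 without RAO 1 and RAO 3). For MUC1 and the epithelial markers r was 0.75 (rho = 0.72, permutation adjusted p = 7.5e-05 and 0.0003, 0.61, 0.53 and 0.88 within the groups, and 0.63 without these 2 horses). GALNT10 gave 0.81 with the same markers (rho = 0.71, permutation adjusted p = 3.75e-05 and 0.00039, 0.69, 0.53 and 0.92 within the groups, and 0.72 without these 2 horses). The values within groups were also taken without the 2 horses of a group farthest from its marker median. In Control, IAD and RAO r was then 0.855, 0.77 and 0.89 for CHST4 and 0.67, 0.11 and 0.94 for MUC4. It was 0.03, 0.52 and 0.59 for MUC1, and 0.485, -0.19 and 0.86 for GALNT10.

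MUC5AC followed neither the ciliated markers (r = 0.18, rho = 0.23, permutation adjusted p = 0.475 and 0.336) nor the epithelial ones (r = 0.36, rho = 0.25, permutation adjusted p = 0.133 and 0.326) at the threshold. With the neutrophil markers it gave r = 0.12 and rho = 0.19 over all horses (permutation adjusted p = 0.619 and 0.397), 0.36 with group means subtracted (permutation adjusted p = 0.138) and 0.18 without RAO 6 and IAD 3. Within Control it rose with these markers, with r = 0.95 and rho = 0.93 over 7 horses (exact permutation p = 0.00278 and 0.00675, adjusted 0.0202 and 0.0434 over 45 within-group relations) and r = 0.94 without Control 2 and Control 7. Control 2, Control 3 and Control 7 had both the 3 highest MUC5AC values and the 3 highest neutrophil marker levels of the group, 10.2 to 11.05. Control 1 and Control 5 had no MUC5AC spot well above background. With the lymphocyte markers r of MUC5AC in Control was 0.84, which was not tested. The lymphocyte mean was taken over 7 transcripts of 4 genes, and those of GZMB moved both ways in RAO against Control (from -1.35 to 0.97). Whether the neutrophil marker levels follow the neutrophils counted in the lavage was not tested. Their group medians were 8.80 in Control, 9.23 in IAD and 11.6 in RAO, and the counted share also rose in this order. Among single horses the 2 could part. In the study's cytology neutrophils were rare in every Control horse. Control 5 had the highest share of them in Control but a marker level of 8.29. IAD 3, mostly macrophages, had the highest level of all horses, 13.96, and RAO 1, mostly neutrophils, had 8.35. In RAO r with the neutrophil markers was 0.79 and rho 0.79 (exact permutation adjusted p = 0.0623 and 0.0898), and in IAD they were both -0.22 (permutation adjusted p = 0.525 and 0.69). The highest IAD horse, IAD 2, had a neutrophil marker level of 8.94, near the low end of its group, and the lowest ciliated marker level of its group, 6.50.

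**Figure D4:**
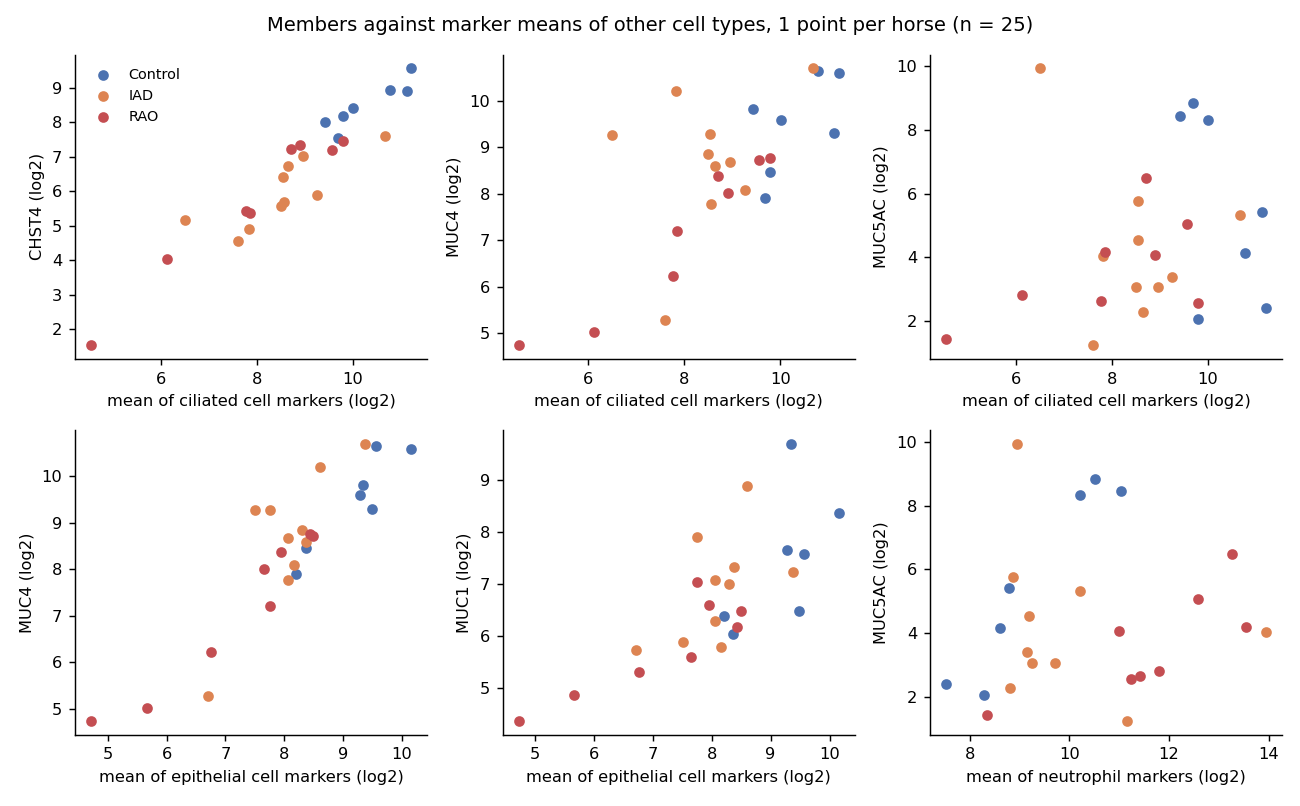
Log2 intensity of a member against the mean log2 intensity of ciliated cell, epithelial cell or neutrophil markers in the same horse, 1 point per horse, coloured by group (25 horses). CHST4 and the ciliated markers lie along 1 line through all groups (r = 0.95), as do MUC4 and the epithelial markers (r = 0.91), whereas MUC5AC scatters over the ciliated markers (r = 0.18).

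With the percentage of epithelial cells counted in the lavage as a covariate, the same 4 members were called in RAO against Control. Their log2 differences were -3.04 for CHST4, -2.58 for MUC4, -1.58 for MUC1 and -0.86 for GALNT10 (limma adjusted p from 0.0191 to 0.052). With the mean of the epithelial markers as the covariate instead, no member was called. The log2 differences were then 0.08 for MUC4, -0.26 for MUC1, -0.01 for GALNT10, -0.10 for CHST4 and -1.11 for MUC5AC (limma adjusted p from 0.708 to 0.989). In IAD the difference of CHST4 was -1.63 with this covariate (adjusted p = 0.193) and -1.23 with the ciliated markers (adjusted p = 0.576). The fits with marker means were chosen after the data were seen. In the study's cytology the mean percentage of epithelial cells was no lower in IAD or RAO than in Control. Macrophages prevailed in Control and IAD, and neutrophils in RAO. The markers differ between the groups themselves, so that a change per cell and a change in the number of cells cannot be told apart.

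The transcripts whose pattern over horses was closest to each member, with group means subtracted, were sought among 4928 others. For MUC5AC they were ENSECAT00000022813, which has no symbol here (r = 0.75), DAPK2, a death-associated kinase (r = 0.70), DEFB4B, a beta-defensin (r = 0.64), BACH1, a transcription regulator of the oxidative stress response (r = 0.63), and ADORA2A, an adenosine receptor (r = 0.63). No correlation with MUC5AC exceeded 0.75, while the closest for the other members were higher. For MUC4 they were 2 transcripts of DOCK6 (0.95 and 0.92) and LMO7 (0.91), for MUC1 DEGS2 (0.92) and 2 transcripts without a symbol (0.91 and 0.89), and for GALNT10 CARD6 (0.86), RARB (0.85) and CADM4 (0.85). For CHST4 they were GALNTL4, another transferase of the GALNT family (0.94), C22ORF31 (0.94) and PRKCZ (0.93).

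The steps around the members were described through lists of genes with a symbol. Of 22 symbols listed for transferases that start O-glycosylation, older names included, 5 could be tested, GALNT10 among them. All 5 were called lower in RAO (median -1.38 against -0.01 over all tested transcripts and -0.38 over those with a symbol). The shares called lower in RAO were 16.7% of all tested transcripts and 44.1% of those with a symbol, and in IAD 6.53% and 18.1%, and the counts of these lists stand beside those. The largest differences were those of GALNTL4 (-2.58), GALNT12 (-1.95) and GALNT4 (-1.38), followed by GALNT6 (-1.01). In IAD 3 of the 5 were called lower, GALNTL4 (-1.94), GALNT12 (-1.38) and GALNT6 (-0.85), with a median of -0.85 against 0.03.

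Of 53 genes for chain extension, fucosylation, sialylation and sulfation 8 could be tested, and they moved both ways in RAO. Beside CHST4, GYLTL1B, a glucuronyl and xylosyl transferase (-1.97), and FUT8, which adds core fucose to N-glycans (-0.99), were called lower. ST8SIA4, a polysialic acid synthase (1.40), and FUT1, which makes the H antigen (0.67), were called higher, and B4GALT1, a galactosyltransferase, gave 0.65 (limma adjusted p = 0.112). That made 3 lower and 2 higher, beside 16% of all tested transcripts called higher. FUT8, GYLTL1B and ST8SIA4 are not specific to mucins. In IAD CHST4 and CHST10, a sulfotransferase of the HNK-1 epitope (-1.70), were called lower.

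Genes that supply the sugar and sulfate donors fell in part. PAPSS2, which makes the sulfate donor used by CHST4, differed by -2.03 in RAO and by -1.37 in IAD (limma adjusted p = 0.0116 and 0.0394). GMDS, the first enzyme of GDP-fucose synthesis, differed by -1.48 and -1.0 (adjusted p = 0.00924 and 0.0434). CMAS, which activates sialic acid, was called only in RAO (-0.64, and -0.30 in IAD with an adjusted p of 0.378). Of the 4 tested genes of this list 3 were thus called lower in RAO and 2 in IAD, with medians of -1.06 and -0.71. The counts of these lists in IAD fell when single Control horses were left out. Without Control 1, 0 of the 4 donor genes passed in the limma fit, where 3 had an unadjusted p below 0.05 with all horses. Without Control 1 or Control 4, 1 of the 5 transferases was called. Over all tested transcripts 110 and 130 were called lower in these 2 fits, against 322 with all horses. With the epithelial or the ciliated marker mean as a covariate 0 of the 5 transferases were called in RAO by limma (1 and 2 at an unadjusted p below 0.05), and 0 of the 4 donor genes (0 and 1).

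Among 13 tested secretory cell genes 10 were called lower and 1 higher in RAO, with a median of -1.60, and 5 lower and 1 higher in IAD, with a median of -0.95, beside 3.25% of all tested transcripts called higher there. The shares called lower were 16.7% of all tested transcripts and 44.1% of those with a symbol in RAO, and 6.53% and 18.1% in IAD. FOXA2, an airway epithelial transcription factor (-2.27), CXCL17, a mucosal chemokine (-2.26), TSPAN13 (-2.19) and CTSE, the protease cathepsin E (-2.17), fell most in RAO, and LTF, which encodes lactoferrin (-1.77), TSPAN13 (-1.31), FAM3D (-1.28) and FOXA2 (-1.27) in IAD. SPDEF, a transcription factor of goblet cells that was picked out after its values were seen, was called lower in RAO (-1.18) and not in IAD (-0.91, limma adjusted p = 0.108). BPIFB2 was called higher in both (0.82 and 0.73), and STEAP4 gave 1.41 in RAO without passing (adjusted p = 0.198). With either marker mean as a covariate 0 of the 13 were called in RAO by limma, and 2 had an unadjusted p below 0.05 in each fit. Of the 5 lower calls in IAD 1 was left without Control 4 or without Control 6, 2 without Control 1 and 3 without Control 3. Over all tested transcripts 130, 133, 110 and 256 were called lower in these fits, against 322 with all horses.

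Ligands and cytokine signals known to raise MUC5AC were in part called higher in RAO. Of 18 tested transcripts 13 were called higher and 3 lower, with a median of 1.05, beside 16% of all tested transcripts and 42.2% of those with a symbol called higher. With the epithelial or the ciliated marker mean as a covariate 10 and 5 were called higher, and 7 or 8 were called higher when Control 1, 4, 5 or 6 or RAO 2 was left out. Over all 4930 tested transcripts 380 and 255 were called higher with these covariates and 612 to 733 without these horses, against 791. IL1A (2.31), TNFRSF1B (2.14) and MMP9 (1.88) rose most. DUOX1, an epithelial oxidase upstream of EGFR ligands (-2.47), ERBB3 (-1.61) and JAG2 (-1.11) were called lower. In IAD only DUOX1 was called (-1.78, limma adjusted p = 0.0922), with a median of 0.23, and that call was lost when single horses were left out, Control 1, 2, 3, 4 and 6 among them. Between RAO and IAD only IL1A was called (1.66), but 10 of the 18 were called higher without IAD 3 and 5 without RAO 1. Over all 4930 tested transcripts 413 and 264 were called higher in these 2 fits, against 71 with all horses. IL1A, TNFRSF1B and MMP9 are also expressed by leukocytes, and TNFRSF1B and MMP9 are among the neutrophil markers above.

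**Figure D5:**
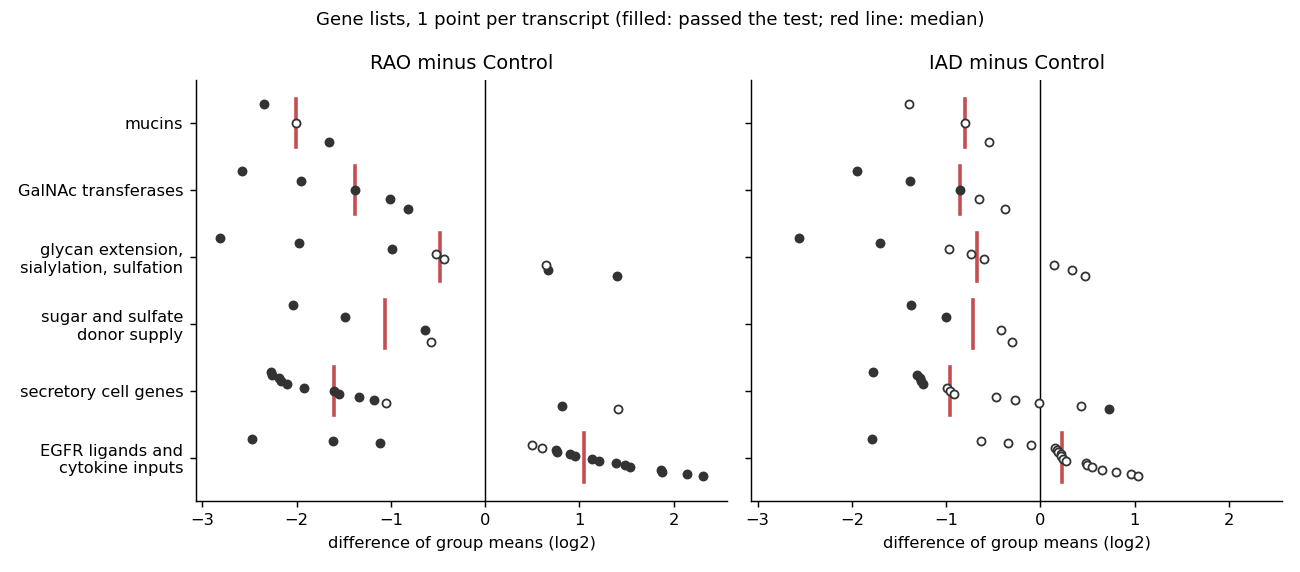
Log2 difference of group means for each tested transcript of 6 gene lists, RAO minus Control on the left and IAD minus Control on the right; filled points passed the test and red lines mark list medians. The GalNAc transferases, donor supply and most secretory cell genes lie below 0 in both panels, while the EGFR ligands and cytokine inputs have a median of 1.05 in RAO and 0.23 in IAD.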

How the data were processed

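RNA from bronchoalveolar lavage cells of 25 horses was hybridised to a custom 1-colour Agilent array with 60-base probes, each printed as 2 spots. The authors extracted spots with Agilent Feature Extraction, and the deposited scanner files hold processed intensity values on a linear scale, with background already subtracted. The submitters' processing notes name R 2.11.1. The genome build is not given in the sources used here, so no coordinates are given. The deposited series table holds the authors' normalized intensity values and served as an alternative.

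Here log2 intensities of 14476 spots for 7238 transcripts were normalized by cyclic loess, 165 spots flagged as outliers were left out, none of them of a member, and spots were averaged. Saturation of the spots was not examined. As in the study's filter, transcripts below 4.5 on 19 or more of the 25 arrays were removed, which left 4930. Groups, taken from the diagnosis labels, were compared in pairs with limma 3.58.1 in R 4.3.3, in place of the SAM test of the study. A call needed a fold of at least 1.5 and p < 0.1 after adjustment by Benjamini and Hochberg over all tested transcripts. The fit was tested on simulated data. Single values were compared by exact permutation over horses, and correlations by permutation. The horse was the replicate, and the number of arrays limits the precision.

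Symbols came from the study's 3 lists of changed transcripts, which name 1865 of the 7238. Named were the 5 members, of each gene list at most the 4 called transcripts with the largest change plus those moving against their list, and the 5 (MUC5AC) or 3 closest transcripts by correlation with group means subtracted. The members and gene lists were chosen with earlier results of these data known. Alternatives were other normalizations, filters, tests, covariates, blocks and the omission of each horse. The marker covariates and the raising of values below background to the lowest signal above it were chosen after seeing the data. The percentages of epithelial cells came from the study's cytology.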

Additional observations from a re-analysis of the deposited data

Results flagged for a closer look

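MUC5AC in IAD 2 stood apart from the other IAD horses, with a log2 intensity of 9.92 against 5.77 in the next horse, IAD 9. The same horse stood apart in MUC5AC minus MUC1, at 2.01 against -1.32 in the next. These 2 values of 1 horse were the only ones found by a test for a single far value in 21 sets of values, where chance gives about 1 in 20. Both MUC5AC spots of IAD 2 were above background, at 9.95 and 9.90. MUC1 and MUC4 in this horse were within the range of the other IAD horses. Its array had the lowest share of probes well above background, 54.8%, and the part of that in the result was not tested.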

How the results depend on the processing

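Over all alternatives 831 of 879 values kept their direction and their side of the threshold or, as counts of called members, stayed within 1.5 times, 20 turned their sign, 12 lost the call, 9 gained it and 7 counts moved further. For RAO against Control, MUC5AC was called with the scan day as a block (-2.20, limma adjusted p = 0.0898) and without Control 5 (-2.61). The count of called members was 0 with the epithelial or the ciliated marker mean as a covariate, and MUC4 was then 0.076 with the epithelial markers. For IAD against Control the count was 0 with the epithelial cell percentage and with either marker mean. With the epithelial markers MUC1 was 0.47, MUC4 0.94 and GALNT10 0.12, and with the ciliated markers MUC4 was 0.13. For RAO against IAD the count was 1 with array weights and without IAD 5. CHST4 was then 0.47 with array weights, 0.10 with the epithelial percentage, 0.92 and 0.35 with the epithelial and ciliated markers, and 0.34 without RAO 1, and MUC5AC was 0.058 with the epithelial markers and 0.017 without IAD 2. MUC5AC minus MUC4 in RAO against Control was -0.037 under 75th percentile scaling, and the spread of MUC5AC passed under quantile normalization (-1.39, permutation adjusted p = 0.0834) and normexp (-0.78, permutation adjusted p = 0.0322). The cause of these changes was not tested.

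When each horse was left out in turn, 4 to 5 members were called in RAO against Control, 1 in IAD against Control and 0 to 1 in RAO against IAD. MUC5AC ranged from -2.61 to -1.48, from -2.02 to -0.87 and from -1.01 to 0.017 in the 3 comparisons, and CHST4 in RAO against IAD from -0.50 to 0.34. MUC5AC minus MUC1 ranged from -1.05 to 0.35, from -1.55 to -0.15 and from 0.21 to 1.02, and MUC5AC minus MUC4 from -0.39 to 1.13, from -1.32 to 0.20 and from 0.70 to 1.49. The sign turned in RAO against Control without Control 3 (0.05) or Control 7 (0.35) for MUC1, without Control 1 (-0.39), Control 4 (-0.11) or Control 5 (-0.10) for MUC4, and in IAD against Control without Control 7 (0.20) for MUC4. The spread of MUC5AC ranged from -1.54 to -0.97, from -1.31 to -0.61 and from -0.71 to 0.18, the last without IAD 2.

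Replicate numbers did not pair the horses. Deviations of horses with the same number had median correlations of -0.10, 0.14 and -0.05 in the 3 comparisons. With the replicate number as a block 4, 1 and 0 members were called, MUC5AC was called in RAO against Control (-1.86, limma adjusted p = 0.0853) and GALNT10 was not (-0.76, limma adjusted p = 0.15).

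Counts over all 4930 transcripts moved more than those of the members. RAO against Control gave 821 lower and 791 higher, and 430 and 444 under normexp. IAD against Control gave 322 and 160, from 0 and 0 with the epithelial percentage, where 610 had an unadjusted p below 0.05 in limma, to 552 and 386 with array weights. RAO against IAD gave 39 and 71, from 0 and 0 under 75th percentile scaling or with the slide as a block, where 978 and 659 had an unadjusted p below 0.05 in limma, to 281 and 541 with array weights. The 75th percentile scaling moved the median of all transcripts to -0.11 in RAO against IAD.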
